A study of Mus musculus with 8 samples.

Results

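The genes described here are 34 mouse genes of the interferon response and of RNA sensing: interferon receptors, sensors of double-stranded RNA with their adaptor and partners, the transcription factors that act below them, and the effectors those factors switch on. They were taken by gene symbol from count tables of 54446 genes. All 34 were found, and 33 had enough counts to be tested among 21782 genes. Isg15 did not. Nuclear RNA, depleted of ribosomal RNA, was sequenced from embryonic stem cells of C57BL/6 mice in 4 groups of 2 libraries each: Mettl14 cKO, Mettl14 control, Mettl3 cKO and Mettl3 control. The abbreviation cKO (written CKO in the labels) stands for conditional knockout, and each knockout has a control of its own. All groups were grown alike, with LIF, the GSK3 inhibitor CHIR99021 and the MEK inhibitor PD0325901. The sources used here do not give how and when the genes were deleted, what the control cells were given, or whether a line is 1 clone. The labels do not state separate cultures for the 2 libraries of a group. The p-values therefore rest on the spread between libraries alone, and that spread may be technical. As the libraries are bulk samples, fewer cells of a type and less RNA per cell cannot be told apart.

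METTL3 and METTL14 form the complex that writes N6-methyladenosine (m6A) on RNA, with METTL3 as the active enzyme. Double-stranded RNA in the cytoplasm is bound by the helicases RIG-I and MDA5, which signal through MAVS to the factors IRF3 and IRF7, and these switch on type I interferon genes. Secreted interferon binds the receptor chains IFNAR1 and IFNAR2 and, through JAK kinases, brings STAT2 and IRF9 to interferon-stimulated response elements, the promoter motif of most of the effectors named below. Pluripotent stem cells are known for making little interferon and for a weak response to it. The comparisons ask whether these genes changed in nuclear RNA upon loss of METTL14 or of METTL3, and whether the changes differed.

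Promoter sequence was available for 25 of the 34 members, in 30 windows running from 250 bases before to 50 after a RefSeq start on GRCm38.p6. Not matched were Dhx58, Ifi27, Mx1, Mx2, Oas2, Parp14, Parp9, Usp18 and Zbp1. The response-element core, read here as GAAA, 2 bases of any kind and GAAA again and searched on both strands, lay in 10 of the 30 windows (33.3%), against 3.44% of all 32851 windows. The windows came from 10 members, shown here as the 30 bases around the first match because they are the members in which the classical interferon motif can be read directly. Capitals mark bases inside a match, letters run 5′ to 3′ on the strand of the gene, and a match built of TTTC is the core on the other strand. Positions are counted from the start site.
Isg15 (chr4:156200871-156200900, minus strand, first match at -78): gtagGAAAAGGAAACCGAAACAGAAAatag
Bst2 (chr8:71537580-71537609, minus strand, -130): attccagGAAAATGAAACTGAAAggctgca
Oas1a (chr5:120907523-120907552, minus strand, -20): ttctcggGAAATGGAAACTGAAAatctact
Ifit1 (chr19:34640775-34640804, plus strand, -104): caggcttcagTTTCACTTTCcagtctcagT
Ifit3 (chr19:34583363-34583392, plus strand, -156): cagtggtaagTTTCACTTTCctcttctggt
Stat2 (chr10:128270266-128270295, plus strand, -222): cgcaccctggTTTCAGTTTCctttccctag
Rsad2 (chr12:26456553-26456582, minus strand, -120): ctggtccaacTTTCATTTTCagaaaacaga
Ddx58 (chr4:40239804-40239833, minus strand, 3): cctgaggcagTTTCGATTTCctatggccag
Eif2ak2 (chr17:78882535-78882564, minus strand, 19): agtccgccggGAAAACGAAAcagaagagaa
Ifih1 (chr2:62646206-62646235, minus strand, 33): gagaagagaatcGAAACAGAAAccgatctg
In Isg15 3 matches overlap in a run of 22 bases, and in Bst2 and Oas1a 2 matches overlap in a run of 16 bases. The last capital of the Ifit1 line opens a further match. Longer stretches, the 250 bases before the start, are given for the member with the longest run of the motif and for Rsad2, an effector gene that was higher in Mettl14 cKO.
Isg15 upstream (chr4:156200819-156201068, minus strand): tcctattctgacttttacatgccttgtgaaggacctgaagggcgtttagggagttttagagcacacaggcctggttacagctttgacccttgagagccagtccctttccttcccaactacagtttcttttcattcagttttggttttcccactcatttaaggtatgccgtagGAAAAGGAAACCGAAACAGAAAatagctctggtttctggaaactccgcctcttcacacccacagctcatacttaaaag
Rsad2 upstream (chr12:26456453-26456702, minus strand): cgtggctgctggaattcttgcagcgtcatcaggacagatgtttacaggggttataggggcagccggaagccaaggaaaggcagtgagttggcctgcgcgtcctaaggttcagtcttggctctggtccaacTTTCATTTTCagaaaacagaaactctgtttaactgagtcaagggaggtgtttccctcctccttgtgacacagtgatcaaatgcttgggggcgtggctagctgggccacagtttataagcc
A second motif, TTCNNNGAA, the form that STAT dimers bind, lay in 9 of the 30 windows, against 8.3% of all windows. Its 9 members were Adar, Bst2, Eif2ak2, Ifi35, Ifit2, Ifnar1, Ifnar2, Irf1 and Oas1a, of which Bst2, Eif2ak2 and Oas1a hold both motifs. A match is a description of these letters and not a shown binding site.

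The libraries held 17235889 to 20086128 counts. Mettl14 had 27.8 and 30.2 CPM (counts scaled to a common library size with TMM factors) in Mettl14 cKO, against 58.3 and 55.0 in Mettl14 control. Mettl3 had 19.8 and 18.6 CPM in Mettl3 cKO, against 37.9 and 36.1 in Mettl3 control. Each targeted gene was thus lower in its own knockout than in its own control, and still counted in every library. In the other line, Mettl14 had 29.6 and 28.7 CPM in Mettl3 cKO and 30.1 and 26.7 in Mettl3 control. Mettl14 control alone was thus high for Mettl14, and Mettl14 cKO lay at the level of the Mettl3 line. Mettl3 had 40.7 and 44.4 CPM in Mettl14 cKO and 40.2 and 43.8 in Mettl14 control, so Mettl3 cKO alone was low. The 12 pluripotent stem cell markers summed to 1908 to 5111 CPM over the 8 libraries, and all of them were tested. The 25 fibroblast markers were present too, and differed between the groups. They summed to 6819 and 6846 CPM in Mettl14 cKO, against 4463 and 4458 CPM in Mettl14 control, and to 18510 and 18370 CPM in Mettl3 cKO, against 16530 and 16080 CPM in Mettl3 control.

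**Figure D1:**
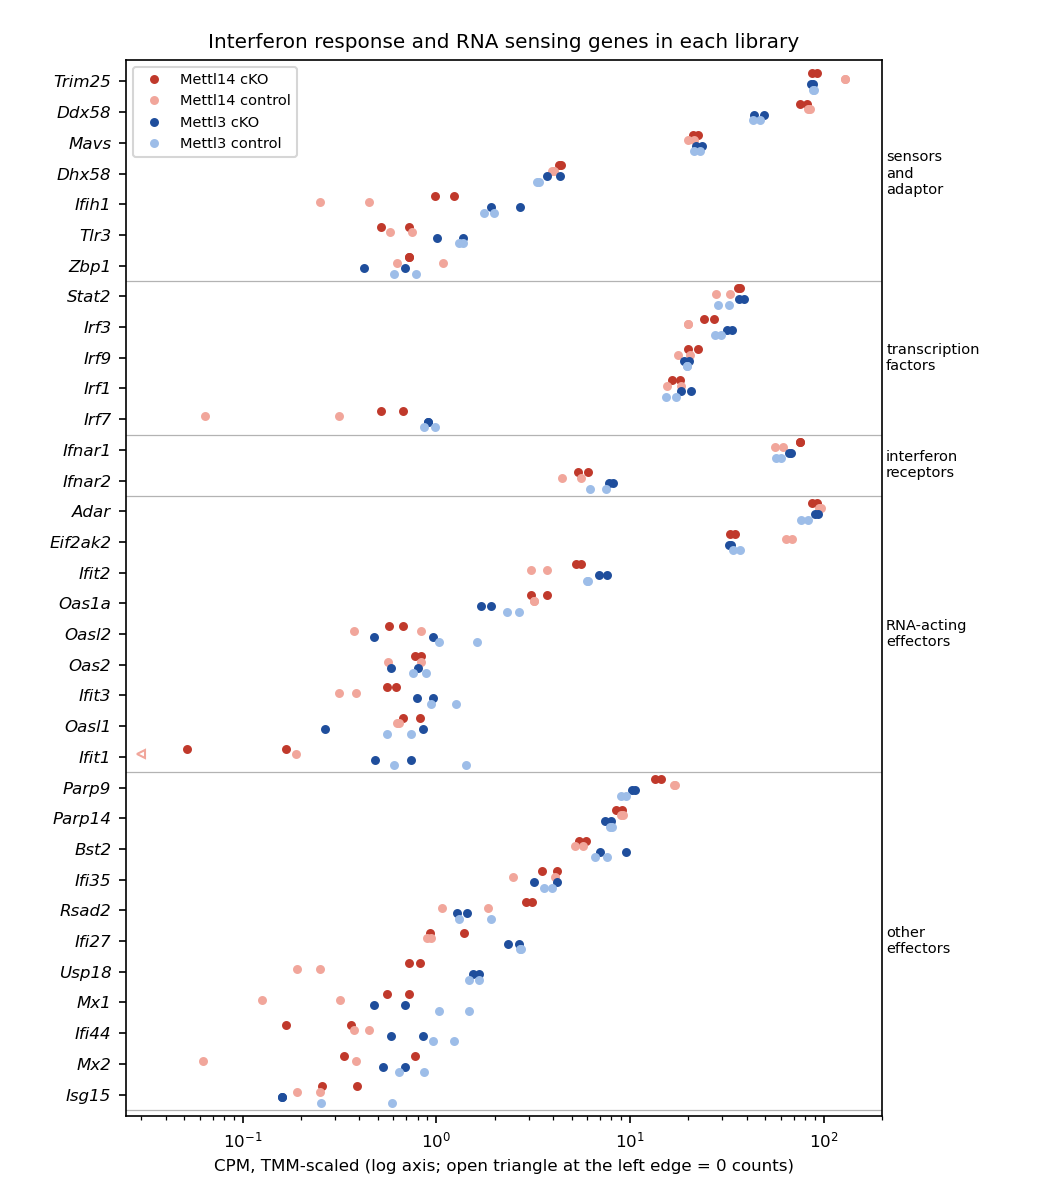
Level of each of the 34 members in each of the 8 libraries, in TMM-scaled CPM on a log axis, ordered by role and within a role by level. Each point is 1 library and colours mark the 4 groups. Trim25, Adar, Ddx58 and Ifnar1 lie above 40 CPM in every library, and many effectors lie below 1 CPM.

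Levels among the members ran from well expressed to nearly silent. Per kilobase of exon, Trim25 stood highest in all 4 groups, at a mean of 15.6 RPKM in Mettl14 cKO and 22.4 in Mettl14 control, and 15.1 in Mettl3 cKO and 15.4 in Mettl3 control. In Mettl14 control Eif2ak2 came next, at 13.0 ± 0.70 RPKM (SD, n = 2), followed by Ddx58 at 11.9 ± 0.19 and Adar at 11.8 ± 0.13, neighbours that did not differ beyond their spread. Adar and Ifnar1 were at similar levels in Mettl3 cKO (11.28 and 11.29 RPKM) and in Mettl3 control (9.84 and 9.80 RPKM). In Mettl14 cKO Ifnar1 stood higher, at 12.76 RPKM, against 11.05 ± 0.50 for Adar. The lowest levels in Mettl14 control were those of Ifit1, Ifih1, Irf7, Mx1 and Mx2, all under 0.1 RPKM. In counts, 12 members had at least 100 in every library, and 11 stayed under 30 everywhere: Irf7, Isg15, Ifit1, Ifit3, Tlr3, Oasl1, Oas2, Mx1, Mx2, Ifi44 and Zbp1. No member was at 0 in all libraries.

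In Mettl14 cKO some members were higher than in Mettl14 control and others lower. With edgeR's quasi-likelihood test and Benjamini-Hochberg adjustment over all tested genes, 7 of 33 members were higher in Mettl14 cKO than in Mettl14 control, where 18.0% of all tested genes were higher, and 3 were lower, where 22.4% were. In all 10 members were called, against 40.4% of all genes. The 7 were Stat2, Irf3, Ifit2, Ifih1, Rsad2, Usp18 and Ifnar1, and the 3 were Eif2ak2, Parp9 and Trim25. With upper-quartile scaling the split was 9 higher and 2 lower. Of all called genes 50.5% were then higher, against 44.6% in the main fit. The members' median log2 change was 0.17, and that of all tested genes 0.03.

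In Mettl3 cKO fewer members were called, as were fewer of all tested genes (20.9%, against 40.4% for Mettl14). The members that were called changed little. Stat2, Irf1, Irf3, Adar and Ifnar1 were higher in Mettl3 cKO than in Mettl3 control by the same test, which makes 5 of 33, where 15.1% of all tested genes were higher. None was lower in edgeR, DESeq2 or limma-voom, where 5.78% of all genes were in edgeR, and 2 were at an unadjusted p under 0.05 (Oasl2 and Mx1). Both directions together took 20.9% of all genes. This count depends on the fit: it was 3 with RLE scaling, limma-voom or the 4 libraries of the line alone, and 2 with DESeq2. With upper-quartile scaling 1 member was higher and 2 were lower. Of all called genes 31.8% were then higher, against 72.3% in the main fit. The members' median log2 change was -0.03, and that of all tested genes 0.03. Stat2, Irf3 and Ifnar1 were higher in both knockouts, and 21 members were called in neither. Neither these joint counts nor the one at an unadjusted p was made over all genes. They cannot be read as a trait of the members.

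The difference between the knockouts was tested directly, as the Mettl14 change minus the Mettl3 change. It was positive for 3 of 33 members, Rsad2, Mx1 and Usp18, where 12.7% of all tested genes were called positive. It was negative for 4, Eif2ak2, Adar, Parp9 and Trim25, where 20.5% of all genes were; both directions together took 33.2%. DESeq2 called 3 members, all negative, and upper-quartile scaling gave 6 positive and 2 negative. All genes shifted likewise: of those called, 26.3% were positive with DESeq2 and 60.6% with upper-quartile scaling, against 38.4% in the main fit. The 3 positive members average under 1 on the log2 CPM scale and the 4 negative ones over it.

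**Figure D2:**
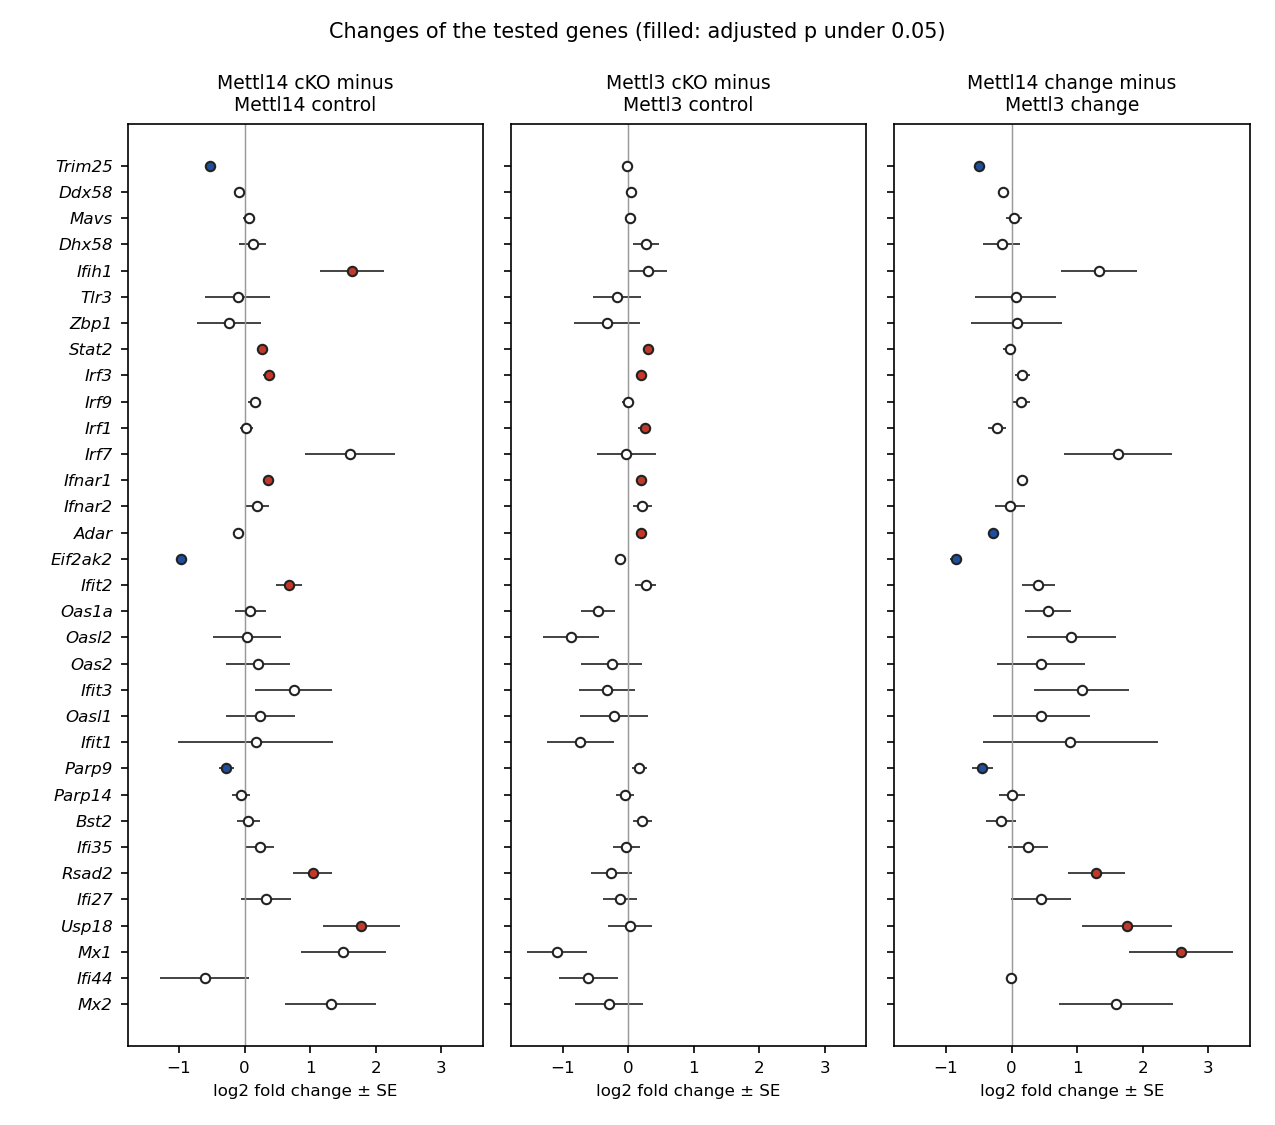
Log2 fold change of each tested member with its standard error, for each knockout over its own control and for the Mettl14 change minus the Mettl3 change, on 1 scale. Filled points have an adjusted p under 0.05 in edgeR's quasi-likelihood test, and the difference of Ifi44, close to 0, is drawn without a bar. Eif2ak2 lies at -0.97 in the Mettl14 comparison and at -0.12 in the Mettl3 comparison, and members with few counts have wide bars.

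Genes that encode interferons were close to absent. Of 10 ligand genes (type I, II and III interferons) none passed the filter, 7 never exceeded 3 counts in a library, and the highest count was 8, of Ifne in Mettl3 control replicate 1. Of the receptor chains, Ifnar1 had 75.8 and 75.8 CPM in Mettl14 cKO, against 61.95 and 56.2 CPM in Mettl14 control. It had 68.0 and 66.1 CPM in Mettl3 cKO, against 59.99 and 56.4 CPM in Mettl3 control. Both knockouts lay above their own controls without overlap. The log2 change was 0.36 ± 0.05 (SE) for Mettl14, with an adjusted p of 2.23e-09 in edgeR's quasi-likelihood test, and 0.20 ± 0.05 for Mettl3, with an adjusted p of 0.00147. The Mettl3 call was lost with upper-quartile scaling (adjusted p = 0.232) and with DESeq2 (adjusted p = 0.0608). The changes differed by 0.16 ± 0.07, which did not pass (adjusted p = 0.0919), but was 0.31 and did with upper-quartile scaling (adjusted p = 0.000297). Ifnar2, the partner chain, lies near Ifnar1 on chromosome 16, with a gap of 79648 bases, and was much lower. It had 5.36 and 6.10 CPM in Mettl14 cKO, 5.57 and 4.46 in Mettl14 control, 7.81 and 8.21 in Mettl3 cKO, and 6.25 and 7.54 in Mettl3 control. Its changes of 0.20 ± 0.17 and 0.22 ± 0.15 did not pass (adjusted p = 0.403 and 0.328 by the same test).

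Among the sensors, Ifih1 and Ddx58 had different patterns. Ifih1 encodes MDA5, a helicase sensor of long double-stranded RNA. It had 1.23 and 0.982 CPM in Mettl14 cKO, from 22 and 19 counts, against 0.448 and 0.251 CPM in Mettl14 control, from 7 and 4 counts. In the Mettl3 line it had 2.71 and 1.92 CPM in Mettl3 cKO, against 1.77 and 1.97 CPM in Mettl3 control. Mettl14 control was the lowest group, with its libraries below the other 6, and Mettl14 cKO lay between it and the Mettl3 line. Ifih1 was higher in Mettl14 cKO by 1.64 ± 0.49 on the log2 scale (adjusted p = 0.00351, edgeR's quasi-likelihood test). The summed counts gave a ratio of 3.16, with an exact 95% interval of 1.59 to 6.81 that covers counting error only. Leaving out Mettl14 control replicate 2 ended the call, at an adjusted p of 0.0844, and the alternatives ran from 0.00273 to 0.0844. The Mettl3 change of 0.31 ± 0.29 did not pass, nor did the difference of 1.33 ± 0.58 (adjusted p = 0.515 and 0.0641). The difference passed with upper-quartile scaling (0.0362) and without Mettl3 cKO replicate 1 (0.0472).

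Ddx58 encodes RIG-I, the sensor of RNA with a free triphosphate end, and was one of the most abundant members. It had 81.5 and 75.9 CPM in Mettl14 cKO, 84.5 and 82.6 in Mettl14 control, 43.6 and 49.0 in Mettl3 cKO, and 43.2 and 47.0 in Mettl3 control. The Mettl14 line lay above the Mettl3 line, Mettl14 cKO lay below its control without overlap, and the Mettl3 groups overlapped. Neither knockout's change passed: the changes were -0.09 ± 0.05 and 0.04 ± 0.06 (adjusted p = 0.174 and 0.711, edgeR's quasi-likelihood test), with 95% intervals of -0.19 to 0.01 and -0.08 to 0.15. The difference of -0.12 ± 0.08 did not pass (adjusted p = 0.219), but did in 3 alternatives: without a low-count filter (0.015), without Mettl3 cKO replicate 1 (0.0153) and without Mettl3 control replicate 2 (0.0432). Dhx58, which encodes the related helicase LGP2, stayed between 3.29 and 4.39 CPM, and Mavs, the shared adaptor on mitochondria, between 20.03 and 23.5 CPM. Neither passed in a knockout, with Dhx58 at 0.12 ± 0.20 and 0.27 ± 0.20 and Mavs at 0.07 ± 0.09 and 0.04 ± 0.09 for Mettl14 and Mettl3. Tlr3, an endosomal receptor of double-stranded RNA, had 0.517 to 1.38 CPM. Zbp1, a sensor of left-handed nucleic acid helices, had 0.425 to 1.09 CPM. Neither was called in a knockout.

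Trim25 encodes a ubiquitin ligase that acts on RIG-I signalling and is itself induced by interferon. It had 92.0 and 87.5 CPM in Mettl14 cKO, against 129 and 128 CPM in Mettl14 control, while Mettl3 cKO had 86.0 and 88.2 CPM and Mettl3 control 88.9 and 87.8. Mettl14 control was the high group, and the other 6 libraries lay within 86.0 to 92.0 CPM. Trim25 fell by 0.52 on the log2 scale in Mettl14 cKO, with an SE of 0.04 and an adjusted p of 3.21e-22 in edgeR's quasi-likelihood test, a level 0.697 times that of Mettl14 control. Its Mettl3 change of -0.02 ± 0.04 did not pass (adjusted p = 0.793), but was -0.13 and did with upper-quartile scaling (0.0189). The difference of -0.50 ± 0.06 passed (adjusted p = 2.9e-12). The Mettl14 call and the difference held under every alternative run. Its promoter window holds no match to the response-element core.

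Of the transcription factors, Stat2 and Irf3 were higher in both knockouts. Stat2 encodes a partner of IRF9 on DNA downstream of the type I receptor. It had 36.9 and 36.2 CPM in Mettl14 cKO, against 27.6 and 32.8 CPM in Mettl14 control, and 36.6 and 38.6 CPM in Mettl3 cKO, against 32.5 and 28.4 CPM in Mettl3 control. Neither pair of groups overlapped. Its changes were 0.27 ± 0.07 for Mettl14 and 0.30 ± 0.07 for Mettl3 (adjusted p = 0.00148 and 0.000509, edgeR's quasi-likelihood test), and they differed by -0.03 ± 0.10, with a 95% interval of -0.23 to 0.17. The Mettl14 call ended with DESeq2 (adjusted p = 0.0595) and when Mettl14 control replicate 1 was left out (0.262), over a range from 0.000113. The Mettl3 call held under every alternative run.

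Irf3 is the constitutive factor that sensor kinases activate. It had 27.0 and 24.2 CPM in Mettl14 cKO, against 19.8 and 19.9 CPM in Mettl14 control, and 33.5 and 31.7 CPM in Mettl3 cKO, against 27.3 and 29.5 CPM in Mettl3 control. Each knockout lay above its control, and Mettl3 control above Mettl14 cKO. Its Mettl14 change of 0.36 ± 0.09 passed under every alternative run (adjusted p = 0.000189 in edgeR's quasi-likelihood test). The Mettl3 change of 0.20 ± 0.07 passed narrowly (adjusted p = 0.0441) and was lost in 7 of 15 alternatives, at up to 0.472. Those 7 include the fits without Mettl3 control replicate 1 (adjusted p = 0.176) and without Mettl3 cKO replicate 1 (0.13). The difference of 0.17 ± 0.11 did not pass (adjusted p = 0.273), except with upper-quartile scaling (0.0203). Irf3 overlaps Bcl2l12 on the opposite strand over 1065 bases, and the strand setting of the counting is unknown here.

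Irf1, a factor induced by interferons, had 20.7 and 18.2 CPM in Mettl3 cKO, against 17.4 and 15.3 CPM in Mettl3 control. It had 16.4 and 18.0 CPM in Mettl14 cKO and 18.4 and 15.4 CPM in Mettl14 control, which overlapped. The Mettl3 change was 0.25 ± 0.10 (adjusted p = 0.0469, edgeR's quasi-likelihood test) and was lost in 7 of 15 alternatives. Among them were the fits without Mettl3 control replicate 2 (adjusted p = 0.234) and without Mettl3 cKO replicate 1 (0.276), and the highest was 0.338. Irf9, the DNA-binding subunit of the STAT complex, stayed at 17.7 to 22.3 CPM and was not called in either knockout, with changes of 0.15 ± 0.09 and 0.00 ± 0.09. Irf7, the inducible partner of IRF3, had 0.670 and 0.517 CPM in Mettl14 cKO and 0.0640 and 0.314 CPM in Mettl14 control, and 0.860 to 0.984 CPM in the Mettl3 line. Its Mettl14 change of 1.60 ± 0.69 missed the threshold (adjusted p = 0.0514, same test; 0.0197 without Mettl14 control replicate 2, 0.0491 without Mettl3 control replicate 2 and 0.0448 with upper-quartile scaling). The difference of 1.63 ± 0.82 passed without Mettl14 control replicate 2 (0.0447), and not with all libraries (0.121). It overlaps Phrf1, at 162.1 CPM on the opposite strand, over 45 bases.

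**Figure D3:**
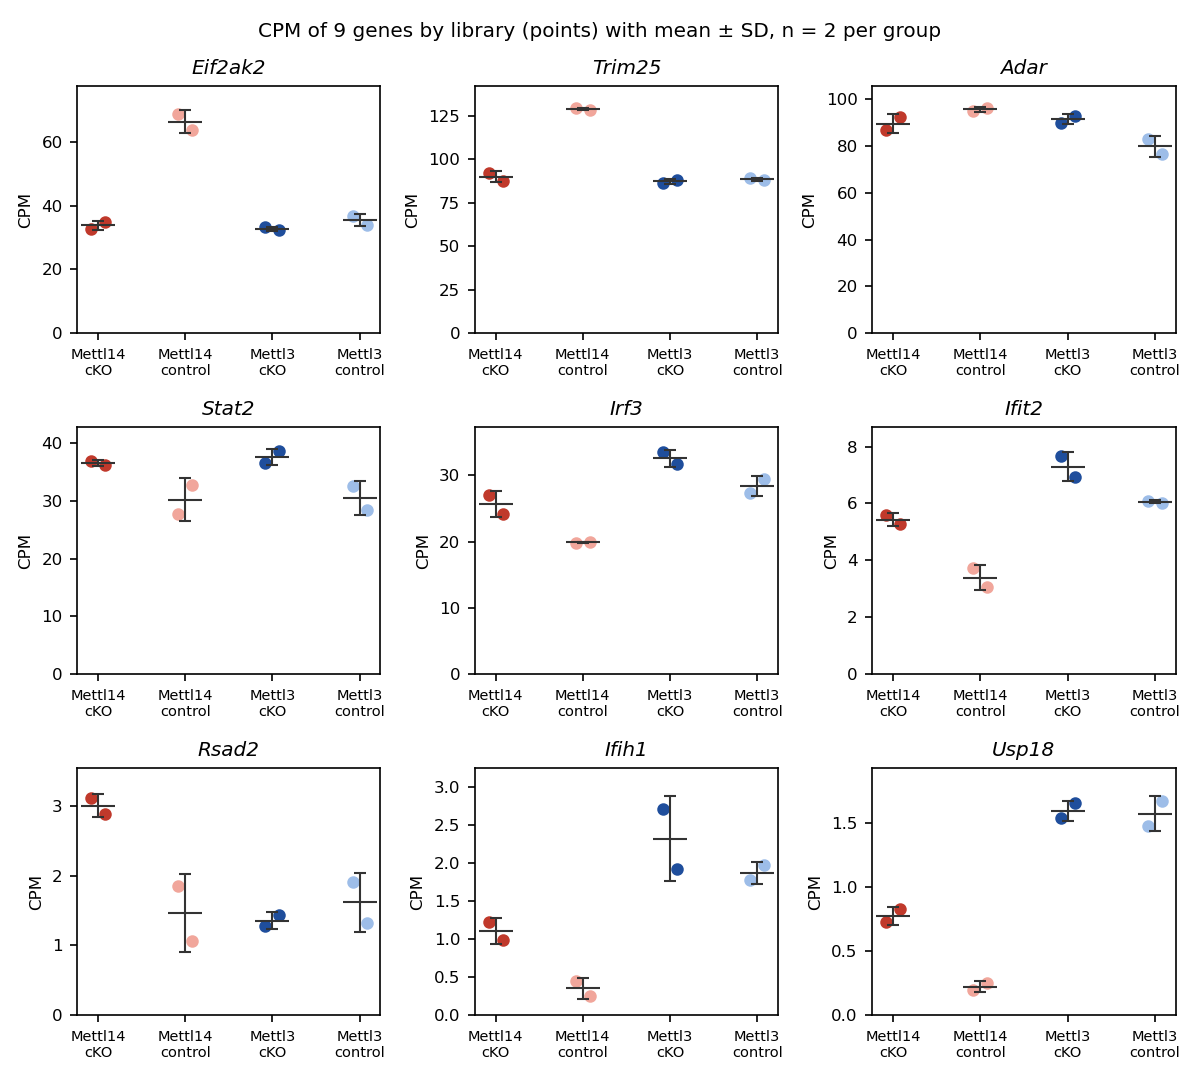
CPM of 9 members that were called in a knockout comparison, with 1 point per library and bars for the mean ± SD of 2 libraries per group, each axis starting at 0. Eif2ak2 and Trim25 are high in Mettl14 control, whereas Ifih1 and Usp18 are low there.

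Eif2ak2 gave the largest decrease that passed among the members in Mettl14 cKO. It encodes PKR, a kinase that double-stranded RNA activates and that stops translation, and lies at chr17:78852564-78882573 on the minus strand. It had 32.8 and 34.9 CPM in Mettl14 cKO, against 68.99 and 63.9 CPM in Mettl14 control. In the Mettl3 line it had 33.2 and 32.3 CPM in Mettl3 cKO, against 36.9 and 34.1 CPM in Mettl3 control. Mettl14 control alone was high, and Mettl14 cKO lay at the level of the Mettl3 line. Eif2ak2 fell by 0.97 on the log2 scale in Mettl14 cKO, with an SE of 0.06 and an adjusted p of 1.84e-29 in edgeR's quasi-likelihood test, to 0.51 times the Mettl14 control level. The Mettl3 change of -0.12 ± 0.07 did not pass (adjusted p = 0.229), though it did with upper-quartile scaling (0.00814). The difference between the knockouts was -0.85 ± 0.09 (adjusted p = 1.82e-14). The Mettl14 call and the difference held under every alternative run, with log2 values of -1.03 to -0.92 for Mettl14. Its motif match, printed above, lies 19 bases past the start.

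Adar encodes the enzyme that turns adenosine into inosine in double-stranded RNA, which keeps such RNA from MDA5. It had 90.1 and 93.0 CPM in Mettl3 cKO, against 83.2 and 76.6 CPM in Mettl3 control. It had 86.8 and 92.6 CPM in Mettl14 cKO, against 95.1 and 96.5 CPM in Mettl14 control. Mettl3 cKO lay above its control and Mettl14 cKO below its own. The Mettl3 change was 0.20 ± 0.05 (adjusted p = 0.000388, edgeR's quasi-likelihood test), and the Mettl14 change of -0.09 ± 0.05 did not pass (adjusted p = 0.0915; 0.0235 with RLE scaling and 0.026 without Mettl14 cKO replicate 2). The difference of -0.29 ± 0.06 passed (adjusted p = 9.69e-05). Upper-quartile scaling ended both the Mettl3 call (0.205) and the difference (0.103). Adar overlaps Chrnb2 on the opposite strand, at 2.71 CPM.

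The Ifit genes, whose proteins bind foreign RNA ends or each other, lie near each other on chromosome 19. Ifit2 was the most abundant, with 5.58 and 5.27 CPM in Mettl14 cKO, against 3.71 and 3.08 CPM in Mettl14 control, and 7.65 and 6.93 CPM in Mettl3 cKO, against 6.10 and 6.02 CPM in Mettl3 control. Both knockouts lay above their controls, but the test called the Mettl14 change alone: 0.68 ± 0.19 (adjusted p = 0.00241, edgeR's quasi-likelihood test), and 0.27 ± 0.16 for Mettl3 (adjusted p = 0.246). The difference of 0.41 ± 0.25 did not pass (adjusted p = 0.214). Without Mettl14 control replicate 2 the Mettl14 call was lost (0.0691; from 0.000996 over the alternatives). Ifit3 had 0.558 and 0.620 CPM in Mettl14 cKO, 0.384 and 0.314 in Mettl14 control, and 0.797 to 1.26 in the Mettl3 line. It was not called in a knockout. Ifit1 had 3 and 1 counts in Mettl14 cKO and 0 and 3 in Mettl14 control, all at or under the floor of 3 counts, so no fold is given for it, and 14 and 9 counts in Mettl3 cKO against 29 and 12 in Mettl3 control.

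The oligoadenylate synthetase genes, whose enzymes make the second messenger that activates RNase L, were not called in either knockout. Oas1a had 3.07 and 3.72 CPM in Mettl14 cKO, 3.20 and 3.20 in Mettl14 control, 1.70 and 1.92 in Mettl3 cKO, and 2.31 and 2.68 in Mettl3 control. Mettl3 cKO lay below its control without overlap, at -0.46 ± 0.26 (adjusted p = 0.22, edgeR's quasi-likelihood test). Oas2 and the synthetase-like genes Oasl1 and Oasl2 had 0.267 to 1.62 CPM over the libraries, with log2 changes of 0.04 to 0.24 for Mettl14 and of -0.87 to -0.21 for Mettl3. The lowest of these, -0.87 ± 0.42 for Oasl2 in Mettl3 cKO, had an adjusted p of 0.137 in edgeR's quasi-likelihood test, from 27 summed counts in Mettl3 cKO and 53 in Mettl3 control, a ratio of 0.544 (exact 95% interval 0.329 to 0.88, counting error only).

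Among the other effectors, Rsad2 and Usp18 were higher in Mettl14 cKO. Rsad2 encodes viperin, a radical SAM enzyme that makes a chain-terminating nucleotide. It had 3.12 and 2.89 CPM in Mettl14 cKO, from 56 counts each, against 1.86 and 1.07 CPM in Mettl14 control, from 29 and 17 counts. It had 1.27 and 1.44 CPM in Mettl3 cKO, against 1.92 and 1.32 CPM in Mettl3 control. The Mettl14 cKO libraries were the highest of all 8, and the other groups overlapped. The Mettl14 change was 1.04 ± 0.30 (adjusted p = 0.00225, edgeR's quasi-likelihood test), with a ratio of summed counts of 2.06 (exact 95% interval 1.45 to 2.97). Leaving out Mettl14 control replicate 2 ended the call (adjusted p = 0.133; from 0.000671 over the alternatives). The Mettl3 change of -0.25 ± 0.32 did not pass (adjusted p = 0.636). The difference of 1.29 ± 0.44 passed (adjusted p = 0.0139) and was lost in 4 of 14 alternatives, at up to 0.152: with DESeq2 (0.0937), and without Mettl14 control replicate 2, Mettl3 control replicate 1 (0.141) or Mettl3 cKO replicate 1 (0.0546).

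Usp18 encodes the protease that removes ISG15 from proteins and restrains the receptor. It had 0.726 and 0.827 CPM in Mettl14 cKO, from 13 and 16 counts, against 0.192 and 0.251 CPM in Mettl14 control, from 3 and 4 counts. In the Mettl3 line it had 1.54 and 1.65 CPM in Mettl3 cKO and 1.48 and 1.67 in Mettl3 control. Mettl14 control was the lowest group and the Mettl3 groups overlapped. The Mettl14 change was 1.78 ± 0.59 (adjusted p = 0.00922, edgeR's quasi-likelihood test), with a count ratio of 3.51 (exact 95% interval 1.5 to 9.48). That call ended when Mettl14 control replicate 1 (0.0892) or Mettl14 cKO replicate 2 (0.0612) was left out, and the lowest adjusted p over the alternatives was 0.00745. The Mettl3 change was 0.02 ± 0.34, and the difference of 1.76 ± 0.68 (adjusted p = 0.0367) was lost in 9 of 14 alternatives, at up to 0.159. These were the fits without a low-count filter and with limma-voom, and those without any 1 library other than Mettl3 control replicate 1.

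Mx1 and Mx2, of the family of dynamin-like antiviral GTPases, lie 72400 bases apart on chromosome 16. The annotation types Mx2 as a polymorphic pseudogene, so its counts do not imply a working protein. Mx1 had 0.558 and 0.723 CPM in Mettl14 cKO, against 0.320 and 0.126 CPM in Mettl14 control, and 0.478 and 0.693 CPM in Mettl3 cKO, against 1.03 and 1.47 CPM in Mettl3 control. Mettl14 cKO lay above its control and Mettl3 cKO below its own, with 2 to 29 counts a library. Neither change passed alone, at 1.51 ± 0.65 for Mettl14 and -1.08 ± 0.46 for Mettl3 (adjusted p = 0.0537 and 0.0787, edgeR's quasi-likelihood test). The Mettl14 change passed in 4 alternatives: without Mettl14 control replicate 1 (0.0463), without Mettl3 cKO replicate 1 (0.0493), in the libraries of the line alone (0.0328) and with upper-quartile scaling (0.0465). The difference of 2.59 ± 0.79 passed (adjusted p = 0.00611), though not without Mettl14 control replicate 2 (0.0607). Mx2 had 6 and 15 counts in Mettl14 cKO, 6 and 1 in Mettl14 control, and 10 to 17 in the Mettl3 line, and was not called in a knockout. Without Mettl14 control replicate 1 its Mettl14 change (0.03) and the difference (0.0398) passed.

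Parp9, an ADP-ribosyltransferase partner, had 13.5 and 14.4 CPM in Mettl14 cKO, against 16.8 and 17.0 CPM in Mettl14 control, and 10.6 and 10.2 CPM in Mettl3 cKO, against 8.999 and 9.52 CPM in Mettl3 control. Mettl14 cKO lay below its control and Mettl3 cKO above its own. Parp9 fell by 0.28 in Mettl14 cKO, with an SE of 0.11 (adjusted p = 0.0302, edgeR's quasi-likelihood test), a call lost in 6 of 15 alternatives. These included leaving out Mettl14 control replicate 1 (0.0868), Mettl14 control replicate 2 (0.139) or Mettl14 cKO replicate 1 (0.208). The Mettl3 change of 0.17 ± 0.12 did not pass, and the difference of -0.45 ± 0.16 did (adjusted p = 0.0222). That difference was lost in 4 of 14 alternatives, among them the fits without Mettl14 cKO replicate 1 (0.0558) and without Mettl3 control replicate 1 (0.0537). Parp9 overlaps Dtx3l and the antisense gene Gm15564, at 15.82 CPM, on the opposite strand, so its counts are uncertain.

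The remaining effectors were not called in a knockout. Isg15, the ubiquitin-like modifier and one of the most inducible interferon genes, had 7 and 5 counts in Mettl14 cKO, 3 and 4 in Mettl14 control, 3 and 3 in Mettl3 cKO, and 12 and 5 in Mettl3 control. The count ratio was 1.45 for Mettl14 cKO over Mettl14 control (exact 95% interval 0.527 to 4.35). Thus the member with the longest run of the motif was among those with the fewest counts, on a merged exon length of 756 bases. Per kilobase of exon it ranked 21 of the 34 members in both Mettl14 groups, 28 in Mettl3 cKO and 22 in Mettl3 control. Bst2, which encodes tetherin, had 5.21 to 9.51 CPM, and Parp14, a neighbour of Parp9 that modifies proteins with mono-ADP-ribose, 7.41 to 9.22 CPM. Ifi35 had 2.50 to 4.20 CPM, Ifi27 0.896 to 2.73 CPM and Ifi44 0.167 to 1.23 CPM. Bst2 was called in the Mettl3 comparison without Mettl3 cKO replicate 2 (adjusted p = 0.0455, edgeR's quasi-likelihood test), at 0.21 ± 0.15 and 0.331 with all libraries.

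More members differed between the controls than between either knockout and its own control, and so did more of all tested genes. Of the tested members 60.6% were called between the controls, against 67.8% of all tested genes. For the knockouts the shares of all tested genes were 40.4% (Mettl14) and 20.9% (Mettl3). Of 33 members, 5 were higher in Mettl14 control than in Mettl3 control, where 33.6% of all tested genes were higher, and 15 were lower, where 34.1% were; both directions together took 67.8% of all genes. The 5 were Ddx58, Eif2ak2, Adar, Parp9 and Trim25. The 15 were Irf3, Irf7, Ifit1, Ifit2, Ifit3, Ifih1, Tlr3, Oasl2, Mx1, Mx2, Usp18, Bst2, Ifi27, Ifi44 and Ifnar2. In edgeR's quasi-likelihood test Ddx58 was higher by 0.89 ± 0.05 (adjusted p = 3.47e-32) and Usp18 was lower by a log2 value of -2.79 ± 0.51 (adjusted p = 7.96e-07). Ifit1 had 3 counts in Mettl14 control and 41 in Mettl3 control, a ratio of 0.093 (exact 95% interval 0.0184 to 0.291). Leaving out Mettl14 control replicate 2 left 14 called members, and 10 of the 14 alternatives ended the call of Bst2. The comparison shares the Mettl14 control libraries with that of Mettl14 cKO, and line and any culture or handling that differed with it cannot be told apart.

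Shares were also set against genes of like abundance. Of the 18 members that averaged 1 or more on the log2 CPM scale, 4 were higher and 3 lower in Mettl14 cKO, where 23.3% and 33.3% of the 14060 genes in that range were. Of the 15 below it, 3 were higher, where 8.37% of 7722 genes were, and their median log2 change was 0.33, against 0.34 for those genes. In Mettl3 cKO the 5 higher members all lay in the upper range, where 23.1% of genes were higher. In the control comparison 11 of the 15 low members were lower, where 44.5% of such genes were.

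Other genes of the pathway moved unevenly. Of 14 genes of receptor and JAK-STAT signalling, 5 were higher and 3 lower in Mettl14 cKO, and 2 higher and 1 lower in Mettl3 cKO. Of all tested genes 18.0% were higher and 22.4% lower in Mettl14 cKO, and 15.1% higher and 5.78% lower in Mettl3 cKO, the shares to set beside each list's count. For these 14 genes the shares were 35.7% and 21.4% in Mettl14 cKO, and 14.3% and 7.14% in Mettl3 cKO. The interferon gamma receptor genes Ifngr1 and Ifngr2 were higher in Mettl14 cKO by 0.71 ± 0.11 and 0.76 ± 0.13, and Jak1, a kinase of all these receptors, was lower, at -0.21 ± 0.04 (adjusted p = 1.72e-08, 1.69e-07 and 1.21e-05, edgeR's quasi-likelihood test). Of 20 tested genes that carry sensor signals to interferon, 5 were higher and 5 lower in Mettl14 cKO (25.0% each), and 6 higher in Mettl3 cKO. Zc3hav1, whose protein ZAP binds CpG-rich viral RNA, was lower in Mettl14 cKO, at -0.97 ± 0.07. Unc93b1, which moves Toll-like receptors to endosomes, was higher, at 0.83 ± 0.19. In Mettl3 cKO Traf3, a ligase below MAVS, and Ikbke, a kinase of IRF3, were higher by 0.41 ± 0.06 and 0.48 ± 0.10.

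Of 10 tested DNA-sensing genes, 1 was higher and 4 lower in Mettl14 cKO, where 18.0% and 22.4% of all genes were, and 1 was higher in Mettl3 cKO. Tmem173, which encodes STING, was the higher one in both, at 0.81 ± 0.12 and 0.48 ± 0.11. Samhd1, a dNTP hydrolase, and Aim2, an inflammasome sensor of DNA, were lower in Mettl14 cKO, at -1.17 ± 0.06 and -0.65 ± 0.06. Of 16 genes that bind, process or degrade double-stranded RNA, 2 were higher (12.5%) and 9 lower (56.2%) in Mettl14 cKO. In Mettl3 cKO 3 were lower (18.8%, against 5.78% of all genes). Of all genes that averaged 1 or more on the log2 CPM scale, 23.3% were higher and 33.3% lower in Mettl14 cKO, and 5.9% lower in Mettl3 cKO. The list itself was not split by abundance. Drosha and Dicer1, the nucleases of microRNA processing, were lower in Mettl14 cKO, at -0.51 ± 0.03 and -0.39 ± 0.03. In Mettl3 cKO the helicase gene Ddx3x was lower, at a log2 change of -0.14 ± 0.02, a call lost without a low-count filter (adjusted p = 0.644).

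Of 42 other tested interferon-stimulated genes, 12 were higher (28.6%) and 5 lower (11.9%) in Mettl14 cKO, where 18.0% and 22.4% of all genes were. Their median log2 change was 0.39, against 0.03 for all tested genes and 0.34 for those that averaged under 1 on the log2 CPM scale. In Mettl3 cKO 3 were higher and 2 lower, where 15.1% and 5.78% of all genes were, with a median of 0.01, against 0.03. H2-K1, a class I antigen-presenting chain, had 45.7 and 42.5 CPM in Mettl14 cKO, against 19.5 and 21.2 CPM in Mettl14 control, and 55.5 and 53.6 CPM in Mettl3 cKO, against 33.7 and 33.7 CPM in Mettl3 control. B2m, the light chain of the same complex, had 47.7 and 53.3 CPM in Mettl14 cKO, against 28.0 and 27.6 CPM in Mettl14 control, and 60.4 and 63.3 CPM in Mettl3 cKO, against 44.3 and 43.7 CPM in Mettl3 control. Both were higher in each knockout without overlap. H2-K1 changed by 1.11 ± 0.07 and 0.70 ± 0.06 and B2m by 0.86 ± 0.07 and 0.49 ± 0.06 for Mettl14 and Mettl3, and these calls held under every alternative run. Ifitm3, a membrane protein that blocks viral entry, was lower in Mettl14 cKO, at -0.89 ± 0.12. Phf11d was lower in both, at -0.76 ± 0.06 and -0.60 ± 0.08.

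**Figure D4:**
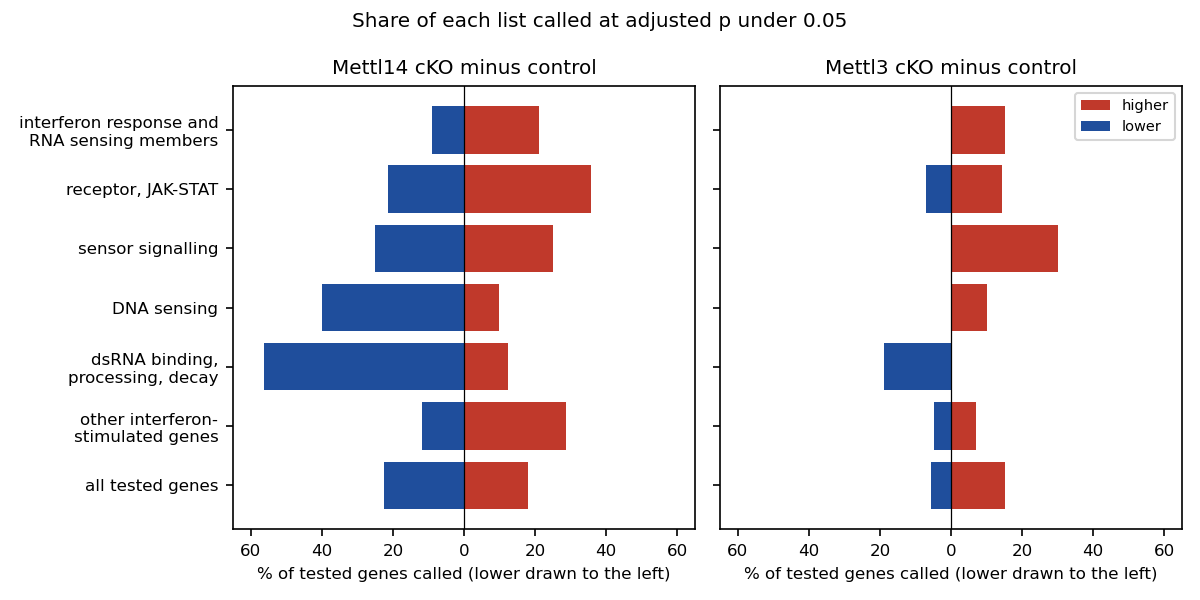
Share of the tested genes of each list that were higher or lower at an adjusted p under 0.05 in edgeR's quasi-likelihood test, for the Mettl14 and the Mettl3 comparison. Of the tested members 21.2% were higher and 9.09% lower in Mettl14 cKO, and 15.2% were higher in Mettl3 cKO.

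Markers of other cells moved in the same comparisons. Of 24 tested fibroblast markers, 19 were higher in Mettl14 cKO (79.2%, against 18.0% of all tested genes), and 12 were higher and 2 lower in Mettl3 cKO (against 15.1% and 5.78% of all genes). In the control comparison 1 was higher and 22 were lower in Mettl14 control, where 33.6% and 34.1% of all genes were, with a median log2 value of -1.99. Of the 25 only Lum was at 0 in a library, Mettl14 control replicate 2. The 12 macrophage and leukocyte markers were low, at a sum of 17.9 to 20.6 CPM in Mettl14 cKO, 17.6 to 17.8 CPM in Mettl14 control, 27.4 to 29.6 CPM in Mettl3 cKO and 29.1 to 29.5 CPM in Mettl3 control, with Aif1 at 0 in Mettl14 control replicate 2 and Ptprc at 0.512 to 2.06 CPM over the libraries. Pluripotent markers summed to 3566 and 3554 CPM in Mettl14 cKO, against 5111 and 5085 CPM in Mettl14 control, and 1929 and 1908 CPM in Mettl3 cKO, against 2034 and 2022 CPM in Mettl3 control. Of these 12, 10 were lower in Mettl14 cKO (83.3%, against 22.4% of all genes) and 6 in Mettl3 cKO (against 5.78% of all genes). The part of these markers in the changes of the 34 members was not tested.

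**Figure D5:**
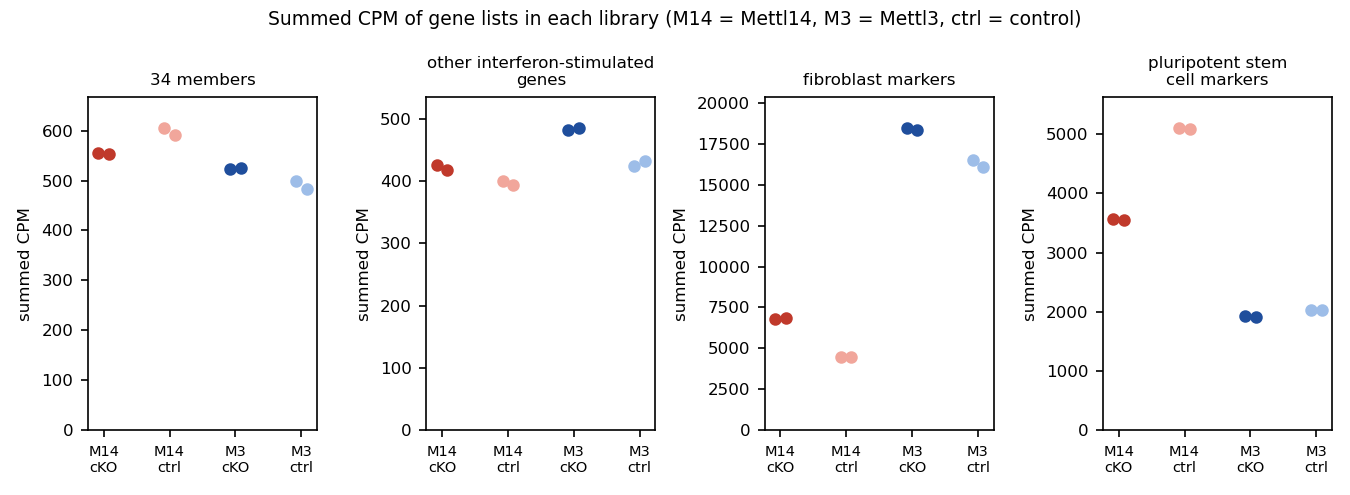
Summed CPM of the 34 members, of other interferon-stimulated genes, of fibroblast markers and of pluripotent stem cell markers, 1 point per library, axes starting at 0. The members sum to 554.3 and 553.5 CPM in Mettl14 cKO, against 606 and 591.9 CPM in Mettl14 control, and to 522.7 and 525.2 CPM in Mettl3 cKO, against 498.2 and 482.1 CPM in Mettl3 control.

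Summed over all 34 members, the level was 554.3 and 553.5 CPM in Mettl14 cKO, below the 606 and 591.9 CPM of Mettl14 control. It was 522.7 and 525.2 CPM in Mettl3 cKO, above the 498.2 and 482.1 CPM of Mettl3 control. Trim25, Adar, Ddx58, Eif2ak2 and Ifnar1 carry much of these sums, as their CPM values above show. By role, the transcription factors summed to 101 and 101.3 CPM in Mettl14 cKO, against 86.5 and 86.2 CPM in Mettl14 control. The RNA-acting effectors summed to 131 and 139 CPM in Mettl14 cKO, against 174 and 169 CPM in Mettl14 control, the opposite direction. In group means, Mettl14 control was the lowest of the 4 groups for 17 of the 34 members and the highest for 7. This order was not counted over all genes, so it cannot be read as a trait of the members. Of all tested genes that averaged under 1 on the log2 CPM scale, 44.5% were lower in Mettl14 control than in Mettl3 control.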

How the data were processed

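Each library has a deposited table of raw read counts by gene. The tools, per the submitters' processing notes, were CASAVA, Trimmomatic 0.38, HISAT2 2.1.0 and HTSeq, and the build mm10. Per the labels' protocols, nuclear RNA was depleted of ribosomal RNA and made into stranded libraries. Not given in the sources used here are the annotation release, the strand setting and how multiply mapped reads were handled, so counts of overlapping or near-identical genes are uncertain. Symbols and coordinates come from GENCODE M21 (54409 gene IDs matched, 37 did not). No line named no gene.

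Groups and replicate numbers come from the sample titles. The libraries of a group correlated at r of 0.989 to 0.990 in log2 CPM and differed by more than sampling noise (chi-square per degree of freedom 1.43 to 2.06), and each was kept as its own replicate. Genes were kept with filterByExpr at a minimum count of 10. edgeR 4.0.16 in R 4.3.3 was run with TMM scaling and a robust quasi-likelihood fit. It held all 8 libraries and 1 mean for each of the 4 groups, leaving 4 residual degrees of freedom. p-values were Benjamini-Hochberg adjusted over all 21782 genes, and a gene was called under 0.05. SE is the log2 fold change divided by the square root of F. A 95% interval of a fold change is 1.96 SE either way. Ratios of low counts carry exact intervals from summed counts, for counting error only. RPKM uses merged exon length. Alternatives were RLE and upper-quartile scaling, no low-count filter, DESeq2 1.42.0, limma-voom (limma 3.58.1), a replicate block, the libraries of 1 line only, and leaving out each library. The test was also run on simulated counts with 200 changed genes. Those libraries were drawn independently, so the run cannot show whether the spread between the real libraries is technical.

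The members and lists were chosen with earlier results of these data known. All 34 members are named. From each pathway list and comparison, up to 2 called genes in each direction with the smallest p and an average log2 CPM of at least 1 could be named; B2m, H2-K1 and others were taken this way. Ptprc was named as the defining leukocyte marker. Promoters are RefSeq windows on GRCm38.p6.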

Additional observations from a re-analysis of the deposited data

Results flagged for a closer look

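Every result here was singled out because the Mettl14 change and the Mettl3 change differed in the test of the difference itself (edgeR's quasi-likelihood test, adjusted p under 0.05). With 2 libraries in a group no single library could be tested as an outlier. Among the members the difference in log2 change, Mettl14 minus Mettl3, was -0.85 for Eif2ak2, -0.50 for Trim25, -0.45 for Parp9 and -0.29 for Adar. It was 2.59 for Mx1, 1.76 for Usp18 and 1.29 for Rsad2, all on few counts.

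Among other genes of the pathway, only up to 2 called genes in each direction of a list are given. In all, 6 of 14 receptor genes, 9 of 20 sensor genes and 3 of 10 DNA-sensing genes were called for the difference. So were 9 of 16 genes acting on double-stranded RNA and 14 of 42 other interferon-stimulated genes, where 33.2% of all tested genes were. The difference was 0.50 for Ifngr1, 0.48 for Ifngr2, -0.24 for Jak1 and -0.16 for Usp7 in receptor signalling. It was -0.82 for Zc3hav1, -0.28 for Riok3 and 0.25 for Ikbkg in sensor signalling, and -1.24 for Samhd1 and -0.78 for Aim2 in DNA sensing. Of the genes acting on double-stranded RNA, it was -0.84 for Stau1, -0.52 for Drosha, 0.35 for Tarbp2 and 0.25 for Skiv2l. Of the other interferon-stimulated genes, it was 0.76 for Tap1, 0.42 for H2-K1, -0.88 for Ifitm3 and -0.20 for Pml. Of these 17 genes Ikbkg lost its call in 9 of 14 alternatives, Tarbp2 in 8, Ifngr2 and Skiv2l in 7 each, Pml in 2, and Ifngr1, Jak1, Riok3 and Usp7 in 1 each.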

How the results depend on the processing

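The count of members called for Mettl3 depended most on the processing. Against 5, it was 3 with RLE scaling, upper-quartile scaling, limma-voom and the libraries of the line alone, and 2 with DESeq2; leaving out 1 library gave 3 to 6. For the difference, against 7, DESeq2 gave 3 and leaving out 1 library gave 5 to 7. For Mettl14, against 10, all alternatives gave 7 to 11, and leaving out 1 library gave the same range. For the controls, against 20, they gave 14 to 23, and leaving out 1 library gave 14 to 19. Of all genes, DESeq2 called 2166 for Mettl3, against 4552, and 4714 for the difference, against 7238. Upper-quartile scaling moved the median of all genes by -0.11 for Mettl3, 0.16 for the difference and -0.22 for the controls, and gave Ifnar1 -0.20 between the controls, against 0.02. Without a low-count filter the Mettl3 change of Usp7 was 0.034, against -0.07. The cause of the other changes was not tested. The members' median for Mettl3 ran from -0.14 to 0.08.

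The replicate block left the counts of called members at 10, 5, 7 and 20. Same-numbered libraries did not deviate together over all tested genes (r of -0.006 to 0.028). Many of these genes have few counts, so this r cannot exclude a shared preparation or batch. Limits are the 2 libraries per group, the 11 members under 30 counts in every library, and counts with no known strand setting.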
